A study of Mus musculus with 8 samples.

Results

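Cells take up glucose through facilitative transporters, split it by glycolysis into pyruvate, and either pass pyruvate to the mitochondria or reduce it to lactate, which leaves the cell together with a proton through a monocarboxylate transporter. In the normal pancreas most of the tissue consists of acinar cells, which make digestive enzymes, while pancreatic carcinomas are known for high glucose uptake and lactate release. The values of 10 genes of this route are described here: the glucose transporter gene Slc2a1, the hexokinase genes Hk1 and Hk2, the glycolytic enzyme genes Pfkp, Aldoa, Pgk1, Eno1 and Pkm, the lactate dehydrogenase gene Ldha, and Slc16a3, which encodes the lactate exporter MCT4. They were chosen by symbol, with earlier results of these data known. Among the 15047 gene symbols of the deposited expression values 10 of 10 were found.

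The RNA-Seq samples are pancreata of 8 male mice. The LFD group (n = 3) and the HFD group (n = 3) were C57BL/6 WT mice that received a low-fat diet or a high-fat diet with 60% of calories from fat, for 10 weeks from the age of 4 weeks. The ob/ob group (n = 2) were C57BL/6J; ob/ob mice, which cannot make leptin and received standard chow, so that both genotype and chow differ from LFD. The ob/ob mice shared the start age of 4 weeks and the 10 weeks of feeding. According to the study the pancreata had received orthotopic mT organoids, which were grown from mouse pancreatic tumours. The sample labels give pancreas as the tissue and do not mention the transplant. A sample can therefore hold host pancreas and grafted cells in unknown proportions, and in such bulk tissue more cells of a type and more RNA of a gene per cell cannot be told apart. The values are rlog values, that is counts normalized by the authors and put on a log2 scale. On this scale a difference of 1 stands for a doubling. Their depth is unknown, so that the spread between mice is the error given, and levels were not compared between genes because they are not per length.

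The labelled tissue was checked with 21 acinar genes. Their mean rlog value was 17.5 to 17.9 in LFD, and 17.8, 15.7 and 13.8 in HFD replicates 1, 2 and 3, and 17.0 and 14.1 in ob/ob replicates 1 and 2, so that acinar RNA was present in every mouse and was lowest in HFD replicate 3 and ob/ob replicate 2. HFD replicate 3 stood apart in another way. The mean of 9 genes of the absorptive cells of the intestine (Apoa1, Apob, Fabp1, Rbp2, Lct, Mttp, Myo1a, Slc15a1 and Vil1, chosen after their values were seen) was 11.8 in this mouse, 4.56 to 4.88 in the other LFD and HFD mice, and 6.29 and 6.11 in the ob/ob mice, and each of the 9 was highest in HFD replicate 3, by 2.10 to 6.96 over the next mouse. Group values of HFD include this mouse, and the counts of calls, the differences of the 10 genes and the main values of the other lists and pairs are given without it as well.

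The stretches of DNA before the start sites of 4 of the genes are shown for Slc16a3, Ldha and Pgk1, the genes whose 3 HFD values all lay above the 3 LFD values, and for Aldoa, which had the smallest difference. They are from RefSeq (GRCm38.p6) and are written 5′ to 3′ on the strand of the gene, Slc16a3 from chr11:120948817-120949052 (+), Ldha from chr7:46845554-46845803 (+), Pgk1 from chrX:106186850-106187099 (+) and Aldoa from chr7:126799255-126799504 (-). Each window ends at the base before the RefSeq start site, except that of Slc16a3, which ends before an exon of Gencode M21. Capitals mark ACGTG, the core letters bound by hypoxia-inducible factors and also part of the E-box CACGTG, or GCGTG, on either strand, where the other strand reads CACGT or CACGC. Where a gene had several windows, one free of exons was preferred, and then the one with the most capitals, so that the windows shown favour these letters. The other promoter of Ldha held 0 ACGTG, and that of Aldoa at chr7:126800398-126800697 held 0 ACGTG and 0 GCGTG.
Slc16a3: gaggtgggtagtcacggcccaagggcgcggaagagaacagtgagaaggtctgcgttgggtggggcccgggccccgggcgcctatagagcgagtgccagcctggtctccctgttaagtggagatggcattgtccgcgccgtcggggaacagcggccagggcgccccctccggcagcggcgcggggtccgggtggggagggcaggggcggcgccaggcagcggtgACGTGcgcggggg
Ldha: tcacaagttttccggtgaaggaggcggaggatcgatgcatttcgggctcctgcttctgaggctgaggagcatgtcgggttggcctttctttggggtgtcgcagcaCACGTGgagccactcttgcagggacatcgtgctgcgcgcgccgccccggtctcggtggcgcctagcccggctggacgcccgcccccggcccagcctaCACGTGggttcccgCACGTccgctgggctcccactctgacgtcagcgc
Pgk1: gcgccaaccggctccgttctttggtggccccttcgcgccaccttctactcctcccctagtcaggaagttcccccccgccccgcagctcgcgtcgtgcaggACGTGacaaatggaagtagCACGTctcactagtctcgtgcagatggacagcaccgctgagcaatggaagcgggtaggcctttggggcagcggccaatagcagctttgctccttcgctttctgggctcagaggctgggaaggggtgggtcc
Aldoa: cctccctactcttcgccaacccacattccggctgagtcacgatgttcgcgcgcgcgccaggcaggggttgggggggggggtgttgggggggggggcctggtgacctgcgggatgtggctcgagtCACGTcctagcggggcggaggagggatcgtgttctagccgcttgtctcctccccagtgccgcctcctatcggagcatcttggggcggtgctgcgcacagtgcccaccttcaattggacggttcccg
The window of Slc16a3 held 1 ACGTG, beginning 27 bases before the start site, and a further one began 14 bases before it, in the part not shown. Ldha held the palindrome CACGTG at 145 and 48 bases before its start site, each of which counts as an ACGTG on both strands, and a further ACGTG at 34 bases. Pgk1 held ACGTG at 150 and 131 bases and Aldoa at 126 bases before the start site. RefSeq gave 17 promoters of 300 bases (250 before and 50 after a start site) for the 10 genes. ACGTG was found in 9 of these 17, 52.9%, against 19.6% of all 32851 promoters, and in at least 1 promoter of 8 of the 10 genes. GCGTG was found in 47.1% against 32.4%, either of them in 82.4% against 43.8%, and CACGTG in 5.88% against 7.15%. The 17 promoters are not separate stretches throughout. Overlapping windows of Aldoa count the same ACGTG again, and overlapping windows of Eno1 the same GCGTG, which raises the shares of the 10 genes. A share per gene over all genes was not taken. The promoters of the 10 genes were richer in G and C, with a median of 65.3% against 52.7% of all promoters, and the part of this in the shares was not tested. The letters are a description of the windows and say nothing of what is bound there.

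Mean values of all 10 genes were higher in HFD than in LFD, with a median difference of 1.00 on the log2 scale against 0.03 over all genes, and higher in ob/ob than in LFD, with a median of 0.90 against 0.04. Slc16a3 had the largest difference in both, 2.26 and 2.08, and Aldoa the smallest, 0.22 and 0.29. The differences were not even among the mice of a group. The 3 highest values of every one of the 10 genes belonged to HFD replicate 2, HFD replicate 3 and ob/ob replicate 2, which were also the 3 highest mice for 2614 of all 15047 genes (17.4%). Averaged over the 10 genes, the offset from the LFD mean was 0.02, 1.58 and 1.60 in HFD replicates 1, 2 and 3, and 0.33 and 1.55 in ob/ob replicates 1 and 2, while the LFD mice lay at -0.04, 0.14 and -0.10. HFD replicate 1 lay above all LFD mice for 3 of the 10 genes and ob/ob replicate 1 for 8, whereas HFD replicates 2 and 3 and ob/ob replicate 2 did so for 10. Of all genes, 31.2% lay above all LFD mice in ob/ob replicate 1 and 41.2% in ob/ob replicate 2. For 30.0% of all genes both HFD replicate 2 and HFD replicate 3 did so. The share for HFD replicate 1 alone was not taken.

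**Figure D1:**
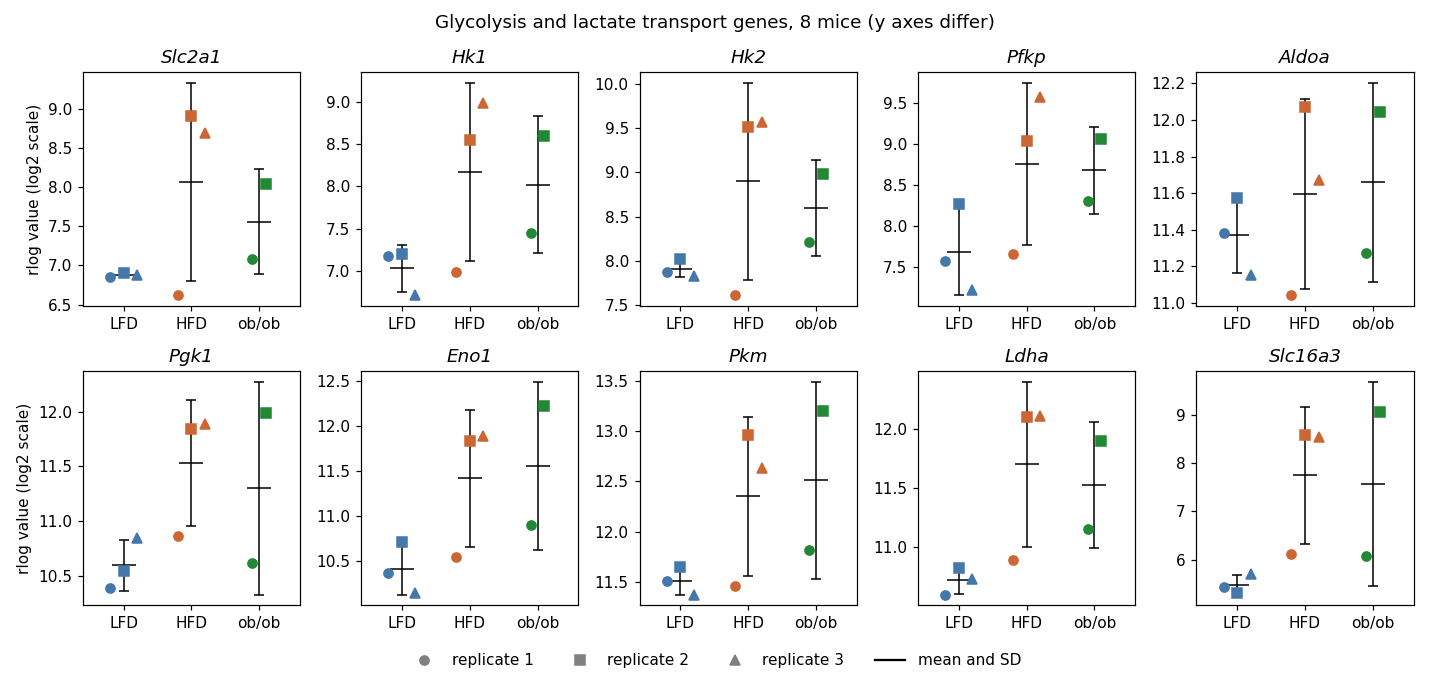
Rlog value (log2 scale, y axes differ) of each of the 10 genes in the 8 mice, 1 point per mouse with the mean and SD of LFD (n = 3), HFD (n = 3) and ob/ob (n = 2). In every panel HFD replicates 2 and 3 and ob/ob replicate 2 are the 3 highest points, and HFD replicate 1 lies within or near the LFD points, for example at 6.62 for Slc2a1 against 6.85 to 6.90 in LFD.

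In limma over all 15047 genes, 0 of the 10 genes passed an adjusted p of 0.05 in HFD against LFD, as did 0.0% of all genes, and 4 were higher at an unadjusted p under 0.05 (Slc16a3, Ldha, Pgk1 and Eno1) against 11.5% of all genes. For 3 of the 10 (Slc16a3, Ldha and Pgk1) every HFD mouse lay above every LFD mouse, which was so for 12.9% of all genes. These counts depended on HFD replicate 1. Without it, 9 of the 10 genes, all but Aldoa, passed an adjusted p of 0.05 together with 2812 genes in all (18.7% of all genes), the median difference of the 10 was 1.54, and the HFD mice lay above the LFD mice for 10 of 10, against 30.0% of all genes. With array weights, by which a mouse counts less the further its values lie from the fit, 10 of the 10 passed an adjusted p of 0.05, as did 44.2% of all genes. Without HFD replicate 3, 0 of the 10 had an unadjusted p under 0.05, against 6.89% of all genes that were higher, and the same number, 3 of 10, did not overlap, against 15.8%. The differences were then 1.86 for Slc16a3, 0.19 for Aldoa and 0.65 (Hk2) to 0.89 (Slc2a1) for the other genes, with a median of 0.75. The 4 genes at an unadjusted p under 0.05 became 0 without HFD replicate 2, where 6.04% of all genes were higher, and 0, 2 and 1 without LFD replicates 1, 2 and 3, where 7.66%, 9.23% and 6.52% were. Without LFD replicate 2 the groups did not overlap for 5, against 19.3%.

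In ob/ob against LFD, 0 of the 10 passed an adjusted p of 0.05 (0.0% of all genes), 1 (Eno1) was higher at an unadjusted p under 0.05 against 11.6% of all genes, and the ob/ob mice lay above all LFD mice for 8 of 10, all but Aldoa and Pgk1, against 24.1% of all genes. The 1 became 8 without HFD replicate 1 (15.4% of all genes), 6 without ob/ob replicate 1 (14.4%), and 0 without HFD replicate 2, ob/ob replicate 2 or any of the LFD mice (4.03% to 10.5%). Where an ob/ob mouse was left out the group held 1 mouse, which was assumed to vary like the LFD and HFD mice.

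For HFD and ob/ob together against LFD, 0 of the 10 passed an adjusted p of 0.05 (0.0% of all genes), 7 were higher at an unadjusted p under 0.05 against 14.5%, and for 2, Ldha and Slc16a3, all 5 obese mice lay above all LFD mice, against 9.4% of all genes. Without HFD replicate 1, 9 of the 10 passed an adjusted p of 0.05 in this comparison, against 22.1% of all genes, and the 5 obese mice, then 4, lay above LFD for 8, against 18.4%. With array weights 9 of the 10 passed as well, against 28.5%. The 7 became 3 without HFD replicate 2, HFD replicate 3 or LFD replicate 2 (10.9%, 12.3% and 11.7% of all genes), 1 without LFD replicate 3 (8.44%), and 0 without LFD replicate 1 (9.92%) or ob/ob replicate 2 (8.94%). Without LFD replicate 2 the groups did not overlap for 4, against 15.2%. Over all genes 2186 were higher and 1639 lower at an unadjusted p under 0.05, and 1823 higher and 2109 lower after each mouse was centred on its median, where 5 of the 10 were higher, against 12.1%. The comparisons with LFD share the same LFD mice, and the joint comparison also shares the HFD and ob/ob mice with the other two.

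**Figure D2:**
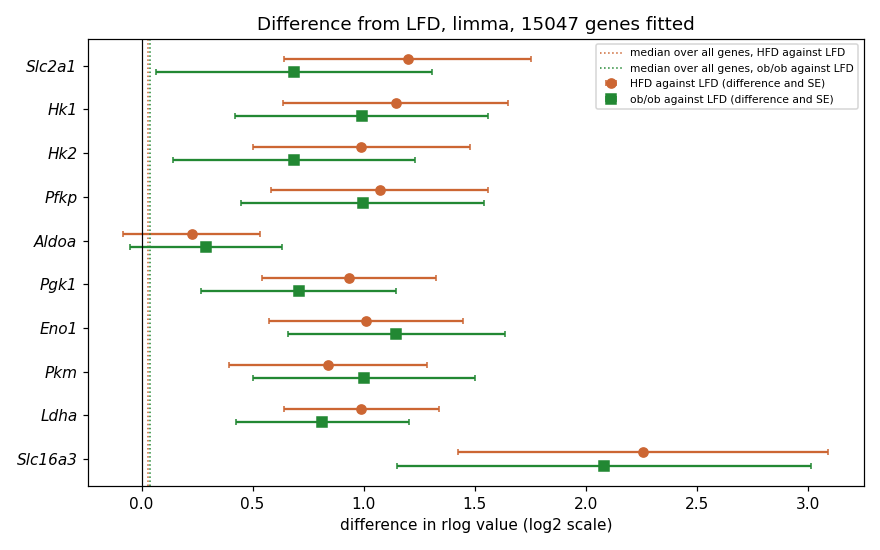
Difference from LFD in rlog value (x axis, log2 scale) for HFD (orange) and ob/ob (green), with the SE from limma as bars and dotted lines at the medians over all genes, 0.03 and 0.04. All 20 differences lie above 0, from 0.22 for Aldoa to 2.26 for Slc16a3.

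Glucose entry was represented by Slc2a1 (ENSMUSG00000028645.11, chr4:119108711-119137983, + strand, Gencode M21 on GRCm38), which encodes GLUT1, the transporter of basal glucose uptake in many dividing cells. Its rlog values were 6.85, 6.90 and 6.87 in LFD, 6.62, 8.91 and 8.69 in HFD, and 7.08 and 8.04 in ob/ob. The 3 LFD mice lay close together (SD 0.02), 2 HFD mice stood about 2 log2 units above them and HFD replicate 1 was the lowest of all 8 mice. The difference was 1.20 (SE 0.56, adjusted p = 0.272 in limma) for HFD and 0.69 (SE 0.62, adjusted p = 0.538) for ob/ob.

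The hexokinases trap glucose in the cell as glucose 6-phosphate. Hk1 (chr10:62268855-62379908, - strand), the form found in most tissues, had rlog values of 7.18, 7.20 and 6.71 in LFD, 6.99, 8.55 and 8.99 in HFD, and 7.45 and 8.60 in ob/ob. Hk2 (chr6:82725025-82774454, - strand), the form of insulin-responsive tissue and of many tumours, had values of 7.88, 8.02 and 7.83 in LFD, 7.61, 9.52 and 9.57 in HFD, and 8.21 and 8.98 in ob/ob. HFD replicate 1 lay among the LFD mice for Hk1 and below them for Hk2, and both ob/ob mice lay above all LFD mice for both genes. The differences for HFD were 1.14 (SE 0.51, limma adjusted p = 0.256) for Hk1 and 0.99 (SE 0.49, adjusted p = 0.290) for Hk2, and for ob/ob 0.99 (SE 0.57, adjusted p = 0.347) and 0.69 (SE 0.55, adjusted p = 0.482).

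Pfkp (chr13:6579768-6648777, - strand) encodes the platelet form of phosphofructokinase, the enzyme of the committed step. Its values were 7.57, 8.27 and 7.22 in LFD, 7.66, 9.04 and 9.58 in HFD, and 8.31 and 9.06 in ob/ob. The LFD mice were more spread for Pfkp (SD 0.53) than for the other 9 genes, and LFD replicate 2 lay above HFD replicate 1. The difference was 1.07 (SE 0.49, adjusted p = 0.266 in limma) for HFD and 1.00 (SE 0.55, adjusted p = 0.333) for ob/ob.

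Aldoa encodes aldolase A, which splits fructose 1,6-bisphosphate. Gencode M21 has a pair of gene entries with this symbol (chr7:126795234-126800751 and chr7:126800790-126809108, both on the - strand), and the deposited values are given by symbol. The values were 11.38, 11.57 and 11.16 in LFD, 11.04, 12.07 and 11.67 in HFD, and 11.27 and 12.04 in ob/ob. HFD replicate 1 was the lowest mouse, ob/ob replicate 1 lay among the LFD mice and HFD replicate 3 just above LFD replicate 2. The difference of 0.22 (SE 0.31, limma adjusted p = 0.694) for HFD was smaller than the spread between the HFD mice (SD 0.52), and that for ob/ob was 0.29 (SE 0.34, adjusted p = 0.642). Without HFD replicate 2 the first was -0.014, and without ob/ob replicate 2 the second was -0.096.

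Pgk1 (chrX:106187100-106203699, + strand) and Eno1 (chr4:150236721-150248879, + strand) encode phosphoglycerate kinase, which makes the first ATP of the pathway, and enolase 1. Pgk1 had values of 10.39, 10.55 and 10.85 in LFD, 10.86, 11.84 and 11.89 in HFD, and 10.61 and 11.99 in ob/ob, so that HFD replicate 1 cleared the highest LFD mouse by a margin that is small beside the range of the LFD mice, 0.46. Eno1 had values of 10.37, 10.72 and 10.15 in LFD, 10.54, 11.84 and 11.89 in HFD, and 10.90 and 12.22 in ob/ob. For Eno1 the ob/ob mice were above all LFD mice and HFD replicate 1 was among them. The differences for HFD were 0.94 (SE 0.39, limma adjusted p = 0.242) for Pgk1 and 1.01 (SE 0.44, adjusted p = 0.249) for Eno1, and for ob/ob 0.71 (SE 0.44, adjusted p = 0.379) and 1.15 (SE 0.49, adjusted p = 0.260). Transcripts of at least 95% identity over 300 bases or more were annotated for other loci, 4 for Pgk1 and 4 for Eno1, mostly processed pseudogenes, so that reads shared with them make the values of both genes less certain.

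Pkm (chr9:59656368-59679375, + strand) encodes the muscle and proliferation forms of pyruvate kinase, which the deposited values by symbol do not separate. Its values were 11.51, 11.65 and 11.37 in LFD, 11.46, 12.96 and 12.63 in HFD, and 11.82 and 13.20 in ob/ob. HFD replicate 1 fell within the LFD range, the other HFD mice lay about 1 log2 unit or more above it, and ob/ob replicate 2 was the highest mouse. The difference was 0.84 (SE 0.45, adjusted p = 0.318 in limma) for HFD and 1.00 (SE 0.50, adjusted p = 0.301) for ob/ob.

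Ldha (chr7:46841475-46855627, + strand) encodes the lactate dehydrogenase subunit that favours the reduction of pyruvate to lactate. Its rlog values were 10.59, 10.82 and 10.73 in LFD, 10.89, 12.10 and 12.11 in HFD, and 11.15 and 11.90 in ob/ob. Every HFD and ob/ob mouse lay above every LFD mouse, HFD replicate 1 by less than 0.1. The difference of 0.99 (SE 0.35, limma adjusted p = 0.208) for HFD had the lowest adjusted p of the 10 genes, and that for ob/ob was 0.81 (SE 0.39, adjusted p = 0.287). Of other loci, 2 for Ldha and 1 for Pkm carry transcripts of at least 95% identity.

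Slc16a3 (ENSMUSG00000025161.16, chr11:120948480-120960868, + strand) encodes MCT4, the transporter by which highly glycolytic cells release lactate. Its values were 5.43, 5.31 and 5.71 in LFD, 6.11, 8.58 and 8.54 in HFD, and 6.08 and 9.06 in ob/ob. All obese mice lay above all LFD mice, and HFD replicate 1 and ob/ob replicate 1 lay within 0.5 of the highest LFD mouse, whereas the other 3 obese mice lay near 3 log2 units above the LFD mean. The difference for HFD was 2.26 (SE 0.83, 4.79-fold, limma adjusted p = 0.215), larger than that of 99.8% of all genes. For ob/ob it was 2.08 (SE 0.93, 4.24-fold, adjusted p = 0.270), although the ob/ob mice differed by 2.98 from each other. For HFD and ob/ob together it was 2.17 (SE 0.75, adjusted p = 0.141), beside 0.90 (SE 0.31, adjusted p = 0.143) for Ldha and 1.08 (SE 0.39, adjusted p = 0.151) for Eno1.

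The ob/ob and HFD groups were compared to see whether the genetic and the dietary form of obesity differ in these genes. None of the 10 genes passed an adjusted p of 0.05 (0.0% of all genes), 0 were higher in ob/ob at an unadjusted p under 0.05 against 2.28% of all genes, and for 0 of 10 did the ob/ob mice lie above all HFD mice, against 7.92%. The differences were negative for 7 genes and positive for 3, from -0.51 (SE 0.62) for Slc2a1 to 0.16 (SE 0.50) for Pkm, with an adjusted p of 1.00 for each in limma. Without HFD replicate 1 the differences of Aldoa, Eno1 and Pkm turned negative, -0.21, -0.30 and -0.28, and without ob/ob replicate 1, with 1 ob/ob mouse left, that of Slc16a3 was 1.31, so that the sign of these differences depends on single mice. The SEs ran from 0.34 to 0.93, and the absence of a call does not show that the groups are alike.

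The spread between mice was itself unequal. The median SD of the 10 genes was 0.21 for the LFD mice, 0.89 for the HFD mice and 0.74 for the ob/ob mice, where the median over all genes was 0.23, 0.35 and 0.28. Without HFD replicate 3 the HFD medians were 1.02 for the 10 genes and 0.31 for all genes (n = 2). Slc2a1 went from an SD of 0.02 in LFD, smaller than that of all but 0.824% of genes, to 1.27 in HFD, larger than that of 96.6%. Slc16a3 had the largest SD of the 10 in both obese groups, 1.42 and 2.11, and Aldoa the smallest in HFD, 0.52. Limma uses 1 residual SD per gene for all groups, and this was 0.71 in the median for the 10 genes against 0.34 for all genes.

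**Figure D3:**
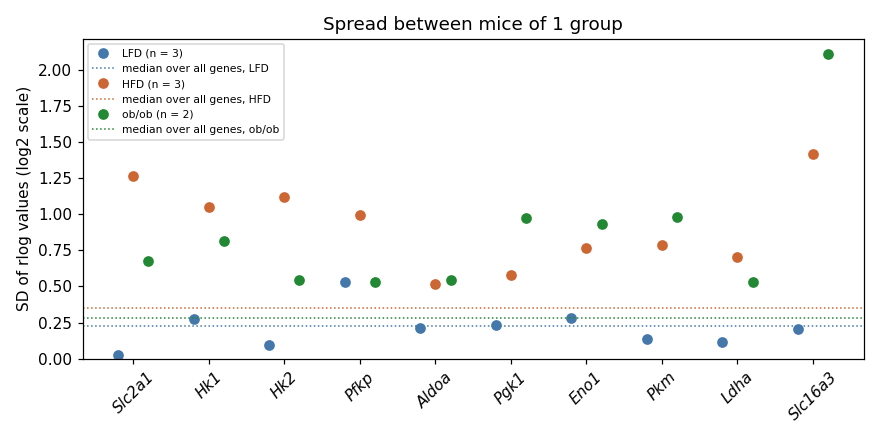
SD of the rlog values between the mice of a group (y axis, log2 scale) for each of the 10 genes in LFD (n = 3, blue), HFD (n = 3, orange) and ob/ob (n = 2, green), with dotted lines at the medians over all genes. For every gene the SD is larger in HFD than in LFD; in ob/ob it is 0.53 to 2.11 and, for Pfkp, at the level of LFD.

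Markers of some cell types moved with the 10 genes. The acinar genes were lower in HFD and ob/ob for 21 of 21, and the 3 mice with the highest offsets of the 10 genes, HFD replicates 2 and 3 and ob/ob replicate 2, had acinar means of 15.7, 13.8 and 14.1 against 17.0 to 17.9 in the other mice. With the acinar mean as a covariate in limma, 0 of the 10 genes had an unadjusted p under 0.05 in any comparison. Of all genes, 5.78% were then higher at that p in HFD, 6.22% in ob/ob and 6.51% in both against LFD, and 4.26% in ob/ob against HFD. The medians of the 10 were 0.26 for HFD and 0.06 for ob/ob. The sum of the linear levels of the 21 acinar genes was 1.45e+07 to 1.94e+07 for the LFD mice. It was 1.06e+06 to 1.80e+07 for HFD and 1.33e+06 to 1.10e+07 for ob/ob. This sum made up 28.8% to 31.4% of all summed levels for LFD, 11.0% to 30.4% for HFD and 12.6% to 30.5% for ob/ob. The sum over all genes was also smaller in the mice with the lowest acinar levels. The shares therefore changed less than the acinar levels did and are not shares of the RNA. Proliferation genes had means of 6.39 to 6.88 in LFD, 6.97, 8.10 and 8.70 in HFD, and 7.70 and 8.61 in ob/ob, fibroblast genes 8.87 to 9.32, then 9.70, 10.3 and 10.4, and 10.1 and 10.8, and macrophage genes 8.65 to 9.12, then 9.43, 10.4 and 9.94, and 10.2 and 10.9. The part of the acinar genes and of these lists in the values of the 10 genes was not tested. The macrophage mean was higher in ob/ob replicate 1 than in HFD replicate 3. With 8 mice in which the lists of this paragraph largely move together, their parts cannot be told apart. The acinar mean sets the same 3 mice apart as the offsets do. The intestinal genes had a mean of 4.56 to 4.78 in the LFD mice, 4.88 in HFD replicate 2 and 11.8 in HFD replicate 3. The offsets of the 10 genes were 1.58 in HFD replicate 2 and 1.60 in HFD replicate 3. The part of intestinal RNA in the values of the 10 genes was not tested.

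**Figure D4:**
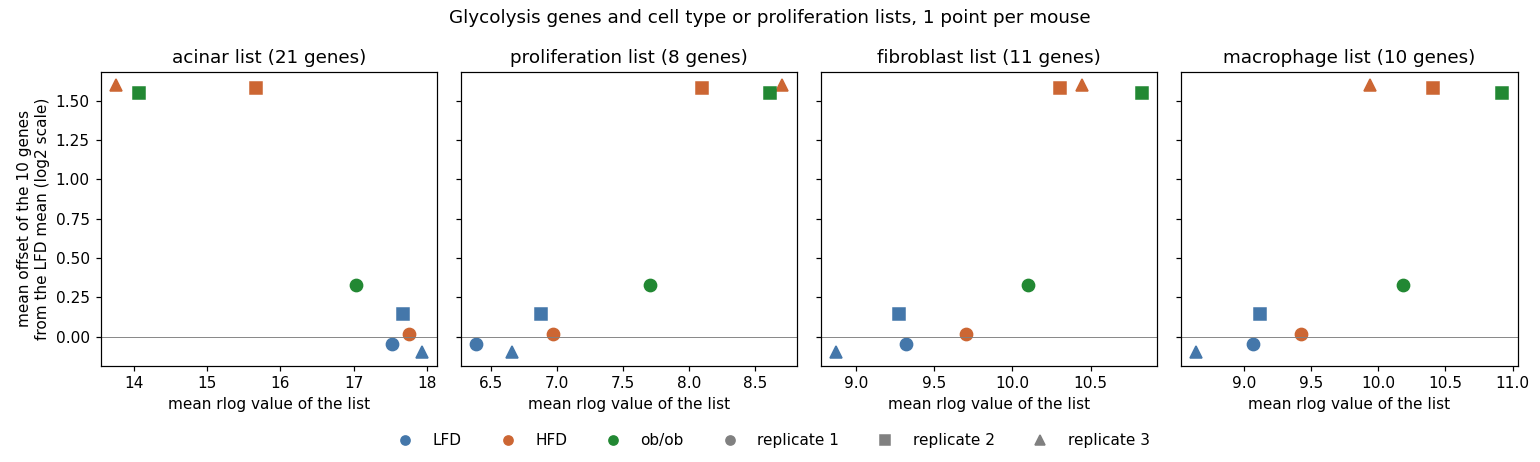
Mean offset of the 10 genes from the LFD mean (y axis, log2 scale) against the mean rlog value of the acinar, proliferation, fibroblast and macrophage lists (x axes, log2 scale), 1 point per mouse. HFD replicates 2 and 3 and ob/ob replicate 2, at offsets of 1.55 to 1.60, have the 3 lowest acinar means, 13.8 to 15.7; the other 5 mice, at -0.10 to 0.33, have acinar means of 17.0 to 17.9.

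Other lists showed means by mouse that did not follow this order throughout. Duct epithelium genes (13 measured) had a mean of 9.19 to 9.57 in LFD, 9.46 to 10.1 in HFD and 9.69 and 8.74 in ob/ob. This mean joins genes that went opposite ways. Against LFD, 9 were higher and 4 lower in HFD, with differences from -2.17 to 1.79. In ob/ob 5 were higher and 8 lower, from -2.25 to 1.43. Neutrophil genes (7 measured) had from 5.0 to 5.7 in LFD, 6.42 to 7.70 in HFD and 6.55 and 6.24 in ob/ob, while Ly6g, Mpo and Elane were not among the symbols. Islet genes had 7.21 to 8.06 in LFD, 6.84 to 7.36 in HFD and 8.79 and 7.87 in ob/ob. Lymphocyte genes had 4.10 to 6.04 in LFD and 4.60 to 5.24 in the obese mice, endothelial genes 7.37 to 7.98 and 7.59 to 8.31, adipocyte genes 7.5 to 8.0 and 6.99 to 8.24, and erythroid genes 8.11 to 9.15 and 7.50 to 10.9, the highest in HFD replicate 3. Of the skeletal muscle genes 4 of 10 were measured, at means of 2.83 to 3.78, and Acta1, Myh1 and Myh4 were not among the symbols.

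Balances between isoforms of one step were taken within each mouse, where a scaling factor of a mouse cancels. Slc16a3 minus Slc16a1, where Slc16a1 encodes the more widely expressed lactate transporter MCT1, was -2.38 ± 0.23 for LFD mice, -1.26 ± 0.75 for HFD mice and -1.15 ± 1.39 for ob/ob mice (SD, n = 3, 3 and 2), and all 5 obese mice lay above all LFD mice. Ldha minus Ldhb, whose product favours the oxidation of lactate, was 4.27 ± 0.38 for LFD mice, 5.61 ± 1.03 for HFD mice and 5.11 ± 0.31 for ob/ob mice, without overlap for ob/ob alone. Pfkp minus Pfkm, the muscle phosphofructokinase, was -0.09 ± 0.53 for LFD mice, 1.31 ± 0.95 for HFD mice and 0.79 ± 0.21 for ob/ob mice, also without overlap for ob/ob alone. Without HFD replicate 3 the 3 HFD means were -1.25, 5.21 and 1.07 (n = 2), in this order.

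**Figure D5:**
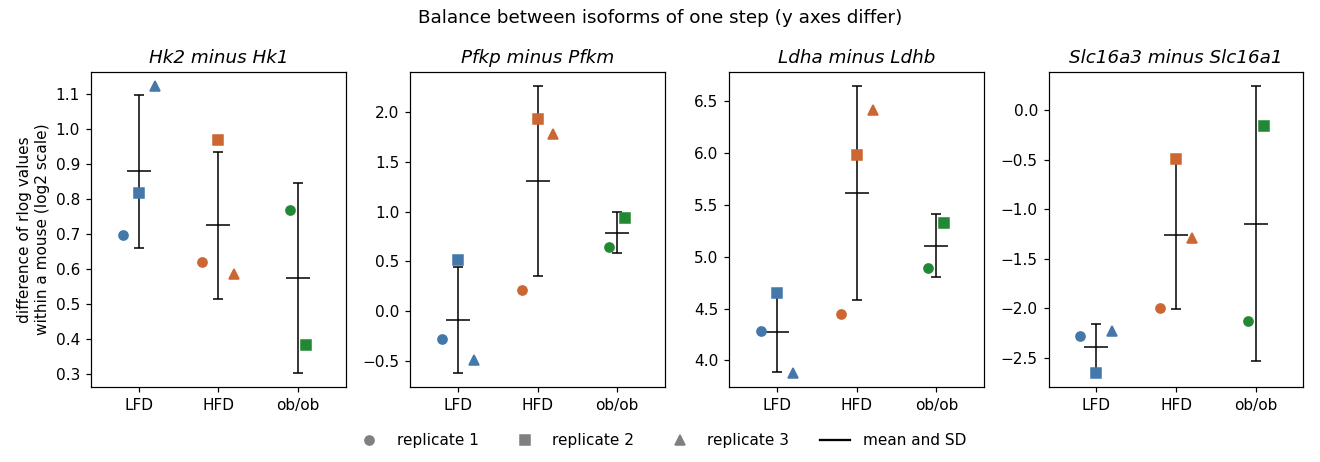
Difference of rlog values between isoforms of one step within a mouse (y axes, log2 scale, ranges differ), 1 point per mouse with the mean and SD of LFD (n = 3), HFD (n = 3) and ob/ob (n = 2). For Slc16a3 minus Slc16a1 the 5 obese mice lie above the 3 LFD mice, HFD replicate 1 and ob/ob replicate 1 by a small margin, while for Hk2 minus Hk1 the groups overlap.

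Of the other 6 pairs reported here, Aldoa minus Aldoc was lower in both ob/ob mice than in all LFD mice, and the groups overlapped for Hk2 minus Hk1, Pfkp minus Pfkl, Slc2a1 minus Slc2a2, Eno1 minus Eno2 and Pkm minus Pklr. The balance of the 2 hexokinases was the least spread of these between the HFD mice, with Hk2 minus Hk1 at 0.88 ± 0.22 in the LFD mice, 0.72 ± 0.21 in the HFD mice and 0.58 ± 0.27 in the ob/ob mice. Slc2a2 and Pklr, which are also used in the intestine and the liver, were highest in HFD replicate 3, at 8.73 and 8.18.

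The remaining genes of the pathway were taken from 9 lists, and 0 of their genes passed an adjusted p of 0.05 in any of the 4 comparisons, so that the genes named here are those with an unadjusted p under 0.05. Of 11 measured glucose transporters 1 was higher and 1 lower in HFD, Slc2a3 (GLUT3, a high-affinity transporter of neurons and leukocytes) by 1.43 and Slc2a8 by -1.06, and 1 was higher in ob/ob, Slc2a3 by 1.45. Of 15 other glycolytic enzymes 0 were higher in HFD and 1 was higher in ob/ob, Hk3 by 1.49. Gapdh and Pgam1, which act between aldolase and enolase and were named after their values were seen, had differences of 1.00 (SE 0.48) and 0.99 (SE 0.49) in HFD and 0.88 and 1.08 in ob/ob, without an unadjusted p under 0.05. The median of the 15 was 0.16 for HFD and 0.39 for ob/ob, below that of the 10 genes.

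The PFKFB enzymes set the level of fructose 2,6-bisphosphate, an activator of phosphofructokinase. Of 5 measured, Pfkfb4 was higher by 1.09 in HFD and 1.16 in ob/ob, and Pfkfb1 by 0.84 in ob/ob. Among 8 genes of lactate and pyruvate handling, Slc16a1 was higher by 1.14 in HFD, and Emb, which encodes embigin, a partner of monocarboxylate transporters at the membrane, by 0.94 in HFD and 1.62 in ob/ob. Ldhd, which oxidises D-lactate, was lower, by -1.25 in HFD and -1.44 in ob/ob, and Slc16a7, which encodes MCT2, by -1.45 in HFD. Emb had values of 6.93 to 7.38 in LFD and of 7.88 to 9.02 in the obese mice, all of them higher than any LFD mouse. Slc16a1 had values of 7.71 to 7.96 in LFD, 8.11, 9.08 and 9.83 in HFD and 8.20 and 9.23 in ob/ob, again with all obese mice above the LFD mice.

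Of 11 genes of pyruvate dehydrogenase and its kinases, Pdk1 was lower by -0.83 in HFD and 0 passed an unadjusted p of 0.05 in ob/ob. Of 7 genes of gluconeogenesis, Pck2 was lower in HFD by -1.20, and Pck2 and Pcx in ob/ob by -1.24 and -1.32. Of 8 genes of the pentose phosphate pathway, which takes glucose 6-phosphate from glycolysis, Pgd was higher by 0.92 in HFD and 0.99 in ob/ob, H6pd higher by 0.66 in HFD, and Taldo1 lower by -0.42 in ob/ob. The medians of these lists were -0.31 and -0.26, -0.39 and -1.24, and 0.17 and -0.11 in HFD and ob/ob, in this order, and in HFD without replicate 3 they were -0.26, -0.45 and 0.07, beside 0.01 for the 15 other glycolytic enzymes.

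Among 8 transcription factors of glycolytic genes, Hif1a, which encodes a subunit of hypoxia-inducible factor 1, was higher by 0.72 (SE 0.23) in HFD and 0.90 (SE 0.25) in ob/ob, and Myc was lower by -0.50 in ob/ob. Hif1a had values of 9.71, 9.85 and 9.63 in LFD, 10.05, 10.47 and 10.84 in HFD, and 10.43 and 10.84 in ob/ob, with each obese mouse above each LFD mouse. Of 12 hypoxia targets outside glycolysis, 3 were higher in HFD, Egln3 by 1.89, Car9 by 1.57 and Ddit4 by 0.76, 1 was lower, Ndrg1 by -0.58, and 0 in ob/ob. Egln3, which encodes a prolyl hydroxylase that marks HIF subunits for degradation, had values of 5.03 to 5.54 in LFD, 6.36, 7.96 and 7.26 in HFD, and 5.62 and 7.50 in ob/ob. The median of the 12 targets was 0.30 for HFD and 0.13 for ob/ob, beside medians of 0.03 and 0.04 over all genes, and 0.33 for HFD without replicate 3. Without that mouse Slc2a3, Slc2a8, Pfkfb4, Emb, Pck2, Hif1a, Egln3 and Ddit4 still had an unadjusted p under 0.05 in HFD against LFD. Slc16a1 (0.72), Slc16a7 (-0.999), Ldhd (-0.82), Pdk1 (-0.50), Pgd (0.67), H6pd (0.49), Car9 (1.42) and Ndrg1 (-0.43) then did not.

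Over the 8 mice the mean of the 10 genes had Pearson coefficients of 0.866 (Aldoa) to 0.988 (Ldha) with its own genes. Among 11833 genes whose mean rlog value reached 5, the 5 outside all lists with the highest coefficients were Hmga1 and Jpt1 (0.992 each), Rhob and Hmga2 (0.990 each) and Prmt2 (0.989). Hmga2, which encodes a chromatin protein of embryonic cells and of many carcinomas, had values of 4.63, 5.23 and 4.58 in LFD, 5.20, 8.11 and 8.70 in HFD, and 5.18 and 8.10 in ob/ob. Over the 7 mice without HFD replicate 3 the coefficients were 0.920 (Aldoa) to 0.993 (Pkm) for the 10 genes and 0.986 (Rhob) to 0.991 (Prmt2) for these 5. These coefficients are a description over 8 mice of 3 groups, in which HFD replicates 2 and 3 and ob/ob replicate 2 lie far from the rest.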

How the data were processed

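RNA-Seq values of the pancreas of 8 mice were grouped by the titles and source names of the samples. Replicates are different animals. The authors quantified transcripts of Gencode M18 (GRCm38.p6) with Salmon 0.11.3, summarized them per gene with tximport, and deposited rlog values made with DESeq2 1.22.2, which are on a log2 scale. The filter that left 15047 symbols, and whether rlog used the groups, are not given in the sources used here. Rlog shrinks differences of genes with few reads. Reads that match several similar transcripts are divided among them by Salmon with a probability model.

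From these values, a mean per group was fitted with limma 3.58.1 (R 4.3.3) in all 8 mice, with a trend on the mean. Benjamini-Hochberg adjustment was over all 15047 genes. No count model was used, since counts were not used here. The script was tested on simulated data. The alternatives were no trend, median centring, a filter at a mean value of 5, a fit of only the groups compared, quantile normalization, an acinar covariate, array weights, the block of the replicate number, equal weight for each obese mouse, leaving out each mouse, and, added after seeing the data, leaving out the 2 obese mice with the lowest acinar level. The 10 genes and the 21 other lists were chosen with earlier results of these data known. The genes named are the 10, list genes with an unadjusted p under 0.05 in HFD or ob/ob against LFD, partner isoforms, the 5 genes most alike, and those said to be named after their values were seen. Promoters are from RefSeq, coordinates from Gencode M21 (GRCm38), and near-identical transcripts were searched among those of M21 (alignments of 95% identity, 300 bases and 50% of the other transcript or more). Some results of the lists and pairs are not reported here.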

Additional observations from a re-analysis of the deposited data

How the results depend on the processing

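Counts of calls rested on single mice. With each mouse left out in turn, all genes passing an adjusted p of 0.05 ranged from 0 to 2812 in HFD against LFD, from 0 to 89 in ob/ob against LFD, from 0 to 1 in ob/ob against HFD and from 0 to 3326 in both against LFD, the highest numbers without HFD replicate 1, except that the 1 came without ob/ob replicate 2. Without ob/ob replicate 1 the numbers were 61 for ob/ob and 476 for both, with the ob/ob mouse that was left assumed to vary like the LFD and HFD mice. With both ob/ob mice kept, 0 to 9, 0 to 8, 0 to 2 (lower) and 0 to 9 of the 10 genes had an unadjusted p under 0.05 in limma. The 2 came without HFD replicate 1, where 627 of all 15047 genes were lower in ob/ob than in HFD at that p. Where both ob/ob mice were kept, 6.04% to 19.8%, 7.01% to 15.4% and 8.44% to 21.2% of all genes were higher at that p in HFD, ob/ob and both against LFD. In the same order of the 4 comparisons, the groups did not overlap for 3 to 10, 8 to 10, 0 to 4 and 2 to 8 of the 10 genes. The shares of all genes that did not overlap were 14.9% to 30.0%, 28.4% to 41.2%, 13.3% to 29.4% and 9.73% to 18.4%. Array weights (0.273 for HFD replicate 1, 9.36 for HFD replicate 2) gave 6656 and 4286 genes in HFD and in both against LFD. Among them were 10 and 9 of the 10 genes. At an unadjusted p under 0.05 the weights gave 10 of the 10 in HFD (29.0% of all genes were higher) and 4 in ob/ob (12.2%). In ob/ob against HFD 2 of the 10 were lower at that p, as were 579 of all 15047 genes. Only the groups compared gave 1 gene in HFD and 38 in ob/ob, with 7 of the 10 at an unadjusted p under 0.05 in ob/ob (14.8% of all genes). With no trend, 2, 0 and 3 of the 10 were higher at an unadjusted p under 0.05 in HFD, ob/ob and both. Of all genes, 11.4%, 11.7% and 14.3% were. The acinar covariate gave 1 gene in ob/ob, in ob/ob against HFD and in both, and 0 of the 10. At an unadjusted p under 0.05 it also gave 0 of the 10, where 4.26% to 6.51% of all genes were higher. The 2 obese mice with the lowest acinar level were HFD replicate 3 and ob/ob replicate 2. Without them 1 ob/ob mouse was left, so that only differences are given. The median of the 10 was then 0.75 in HFD, 0.36 in ob/ob and 0.56 in both against LFD, and -0.35 in ob/ob against HFD. Over all genes these medians were 0.02, 0.01, 0.02 and -0.01. The causes were not tested.

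Signs were mostly kept against LFD. The exceptions were Aldoa in HFD (-0.17 with the acinar covariate, -0.014 without HFD replicate 2), in ob/ob (-0.14 with the covariate, -0.10 without ob/ob replicate 2 and without the 2 mice of lowest acinar level) and in both (-0.16), and, with the covariate, Hk1 (-0.018), Hk2 (-0.20) and Slc2a1 (-0.29) in ob/ob and Hk2 (-0.012) in both. In ob/ob against HFD, Aldoa, Eno1 and Pkm turned to -0.36, -0.24 and -0.39 with array weights, to -0.21, -0.30 and -0.28 without HFD replicate 1, to -0.32, -0.52 and -0.53 without ob/ob replicate 2, and to -0.28, -0.29 and -0.39 without the 2 mice of lowest acinar level. Hk1, Hk2, Ldha, Pfkp and Slc16a3 turned to 0.03, 0.007, 0.03, 0.07 and 0.24 without HFD replicate 2, to 0.25, 0.03, 0.03, 0.33 and 0.22 without HFD replicate 3, and to 0.42, 0.082, 0.20, 0.30 and 1.31 without ob/ob replicate 1, where Pgk1 turned to 0.46. With each mouse left out in turn, Aldoa ranged from -0.014 to 0.50 in HFD and from -0.096 to 0.67 in ob/ob against LFD, and in ob/ob against HFD the ranges were -0.75 to 0.42 for Hk1, -0.95 to 0.082 for Hk2, -0.63 to 0.33 for Pfkp, -0.32 to 0.45 for Aldoa, -0.92 to 0.46 for Pgk1, -0.52 to 0.80 for Eno1, -0.53 to 0.85 for Pkm, -0.58 to 0.20 for Ldha and -1.67 to 1.31 for Slc16a3.

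The labels do not say that a replicate number marks a shared cage or batch, and the numbers were not taken to pair the mice. Deviations from the group means correlated at -0.06, 0.11 and -0.28 between LFD and HFD mice of the same number, at -0.10 and 0.13 between LFD and ob/ob, and at 0.59 and 0.30 between HFD and ob/ob, where a group of 2 gives deviations of equal size and opposite sign and HFD replicate 3 correlated at 0.44 with ob/ob replicate 2. With the replicate block, the 4, 1 and 7 of the 10 genes with an unadjusted p under 0.05 in HFD, ob/ob and both became 9, 5 and 9, where 12.7%, 12.5% and 15.7% of all genes were higher, and 0 passed an adjusted p of 0.05, and the differences of Pfkp and Slc16a3 in ob/ob against HFD turned to 0.013 and 0.080. Depth is unknown, so that no counting error limits could be given.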
